A study of Mus musculus with 6 samples.

Results

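The transcripts of protein kinase A, the kinase that cyclic AMP (cAMP) switches on, were followed through a short cAMP stimulus in cultured mouse hippocampal neurons. The 9 genes were taken by symbol from the deposited count table: 2 catalytic subunits (Prkaca and Prkacb), 4 regulatory subunits (Prkar1a, Prkar1b, Prkar2a and Prkar2b) and 3 inhibitor peptides (Pkia, Pkib and Pkig). All 9 were among the 37411 gene rows, and all 9 passed the filter on low counts that left 16233 genes to test. The cells came from CD-1 IGS pups at P0 and had been kept 16 days in vitro; the DMSO group (libraries 1, 2 and 3) had received only the solvent, and the Forskolin group (libraries 4, 5 and 6) 50 µM forskolin, an activator of adenylyl cyclase, for 30 min. No genetic change is labelled in either group. The labels do not say whether the libraries of a group came from separate cultures or litters, so that p-values measure only the spread between these libraries, which may be technical.

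In its resting state protein kinase A is a holoenzyme of paired catalytic subunits held silent by a dimer of regulatory subunits. When cAMP binds the regulatory subunits, the catalytic subunits become active and phosphorylate their targets, among them the transcription factor CREB in the nucleus. The type I regulatory subunits block the catalytic site with a pseudosubstrate, whereas the type II subunits carry a site that the kinase itself phosphorylates. The inhibitor peptides of the Pki genes bind free catalytic subunits, and can carry them out of the nucleus. In hippocampal neurons the kinase is known for its part in lasting synaptic potentiation and memory.

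Total counts ran from 28342764 to 35304310 in the DMSO libraries and from 34139191 to 47548379 in the forskolin libraries, and the 9 genes together held 0.113 to 0.174% of them. No libraries were alike within sampling noise, since the lowest chi-square per degree of freedom between any pair was 30.3. Fos, an immediate early target of CREB, was higher in each forskolin library: 186, 109 and 101 CPM (the normalised read count, scaled to library size with TMM factors) in the DMSO libraries, against 831, 902 and 448 CPM after forskolin. Library 6 stood apart from the other forskolin libraries: across genes its log2 CPM correlated at 0.983 with DMSO library 3 and at 0.943 with library 4. Some cell type markers followed the same division. The 12 microglia markers summed to 23 to 35.3 CPM in the DMSO libraries, 227 and 377 CPM in libraries 4 and 5, and 25.1 CPM in library 6. All 14 neuron markers were detected, at a summed 4170 to 5490 CPM in the DMSO libraries, 3250 and 3550 CPM in libraries 4 and 5, and 5210 CPM in library 6. With all 6 libraries 1 of these 14 neuron markers passed the edgeR test as lower, beside 1.34% of all genes. Without library 6, 8 did, beside 17.1% of all genes. Astrocyte markers were also abundant in these cultures, with 12 of 12 tested and a sum of 8850 to 9390 CPM with DMSO and 8670 to 9610 CPM with forskolin. Single astrocyte markers went apart under that sum, and without library 6 edgeR called 2 higher and 3 lower, beside 16.5% and 17.1% of all genes. Aqp4 had 212 to 313 CPM with DMSO and 675 and 862 CPM in libraries 4 and 5, whereas Glul had 1500 to 1680 CPM and then 867 and 903 CPM. Both were chosen after their values were seen. The 12 markers of the oligodendrocyte lineage summed to 825 to 918 CPM with DMSO and 1110, 1600 and 649 CPM in libraries 4, 5 and 6. The 12 vascular and mural markers gave 108 to 239 CPM with DMSO and 97.6 to 294 CPM with forskolin. Without library 6 edgeR called 11 of 12 microglia markers higher, and 7 of 12 oligodendrocyte lineage markers higher and 2 lower. Of 10 vascular and mural markers tested, 1 was then higher. With all 6 libraries 0 were called among the astrocyte, microglia, oligodendrocyte lineage, and vascular and mural markers. No marker of these 5 lists was at 0 in all libraries. Mitochondrial ribosomal RNA took 14 to 23.7% of counts with DMSO and 26.9 to 33.3% with forskolin. The tests of the 9 genes below are therefore given with and without library 6.

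None of the 9 transcripts passed the test for a change after 30 min of forskolin. In edgeR's quasi-likelihood test, 0 of the 9 had an adjusted p-value under 0.05, where 1.51% of all 16233 genes did (1.34% lower and 0.172% higher). An unadjusted p-value under 0.05 was reached by 1 of the 9, Pkig, and by 22.3% of all genes. DESeq2 also called 0 of the 9, beside 10.9% of all genes (5.98% lower and 4.89% higher), with 2 of the 9 and 24.8% of all genes at an unadjusted p under 0.05. limma-voom called 0 of the 9, beside 1.34% of all genes (1.19% lower and 0.148% higher). The fitted log2 fold changes of the 9 ran from -0.59 for Prkar1b to 0.18 for Pkia, with a median of -0.12 beside 0.02 for all tested genes, and 7 of 9 lay below zero beside 48.2% of all tested genes. That count rests on single libraries: it was 4 of 9 without library 3 (median 0.03) and 5 of 9 without library 4 (median 0). With library 6 left out, 4 of the 9 were lower (Prkaca, Prkar1a, Prkar1b and Pkig) and 0 higher. In that fit 33.6% of 16941 tested genes were called (17.1% lower and 16.5% higher), so that calls were common throughout. Weighting each library by its estimated quality gave library 6 a weight of 0.156 and called the same 4 genes lower, beside 41.9% of all genes (20.9% lower and 21% higher). No member was in the authors' deposited table of 132 genes, in which the smallest log2 fold change is 1.5.

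**Figure D1:**
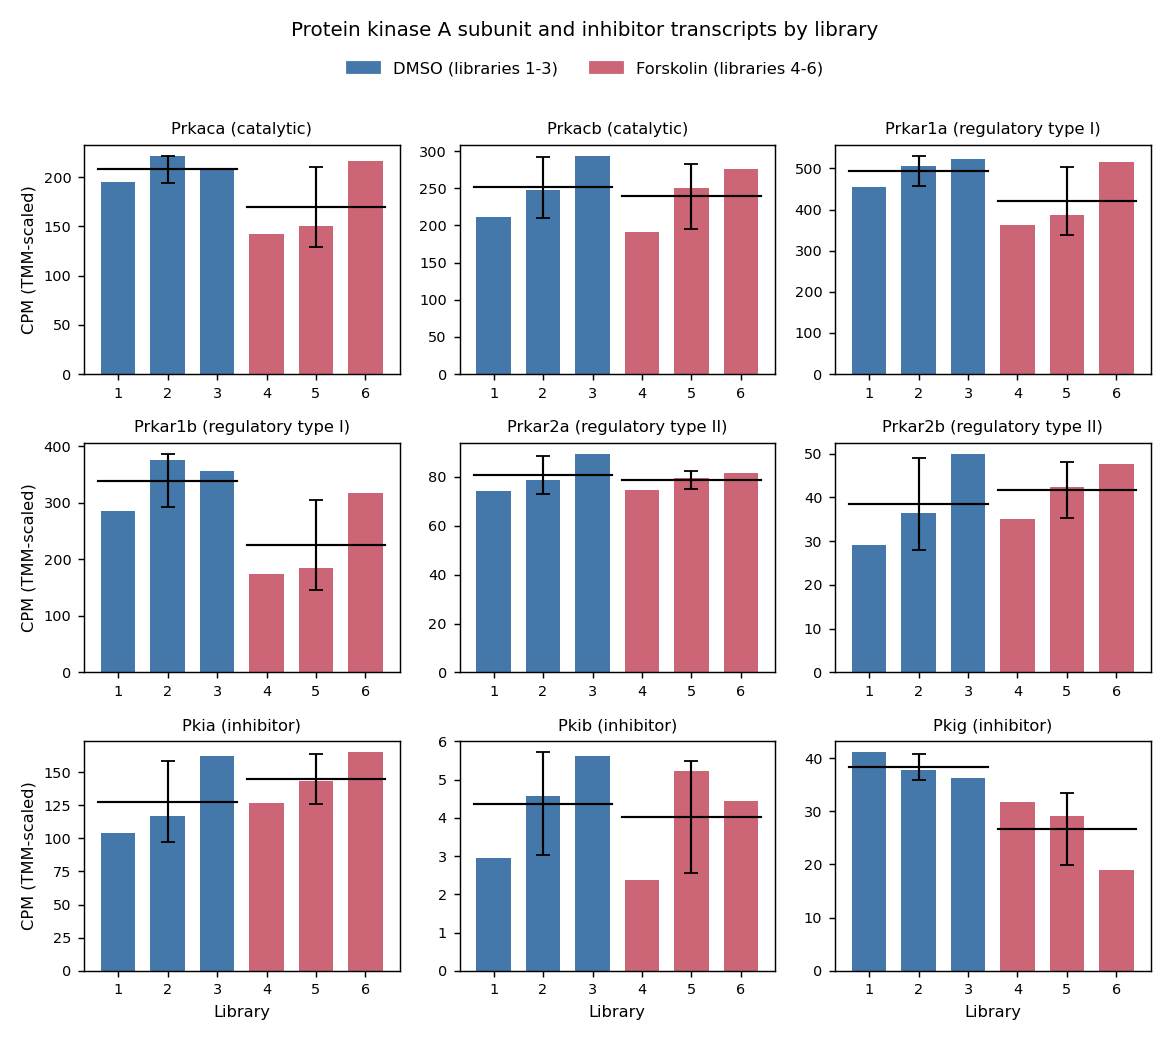
Normalised read count (CPM) of each of the 9 transcripts in each library, with DMSO libraries 1 to 3 in blue and forskolin libraries 4 to 6 in red. Black lines are group means with SD (n = 3). Prkaca, Prkar1a and Prkar1b are low in libraries 4 and 5 and near the DMSO level in library 6, and Pkig is the one transcript whose groups do not overlap.

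In the DMSO cultures the kinase was mainly of type I at the transcript level. Per kilobase of the longest annotated transcript, Prkar1a had 141 ± 10.4 CPM per kb (SD, n = 3), Prkar1b 129 ± 17.9, Prkaca 91.4 ± 6.08 and Prkacb 57.8 ± 9.45. Lower levels per kilobase belonged to Pkia (35.3 ± 8.39), Prkar2a (16.3 ± 1.56), Pkig (13.7 ± 0.876), Prkar2b (11.4 ± 3.13) and Pkib (0.822 ± 0.253). In this order the DMSO ranges of Prkar1a and Prkar1b overlapped, as did those of Pkig and Prkar2b, whereas the other neighbours did not. The first 6 places were the same in each of the 6 libraries, and Pkig and Prkar2b changed places in libraries 3, 5 and 6. The order rests on the length used: per kilobase of coding sequence Pkia came first, at 561 CPM per kb against 433 for Prkar1a, because its longest transcript has 3617 bases of which only 228 are coding. On median transcript length Prkar1b came first, at 771 CPM per kb against 514 for Prkar1a and 203 for Pkia.

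Prkaca (ENSMUSG00000005469.10, GRCm38 chromosome 8, 83972993 to 83996443, plus strand) encodes the alpha catalytic subunit, the main catalytic form in most tissues. Its normalised read counts were 195, 222 and 207 CPM in libraries 1, 2 and 3, and 142, 151 and 217 CPM in libraries 4, 5 and 6. Libraries 4 and 5 lay below every DMSO library, and library 6 lay between libraries 2 and 3. The log2 fold change was -0.29 (95% interval -0.73 to 0.14, edgeR adjusted p = 0.373), and without library 6 it was -0.52 (-0.76 to -0.29, edgeR adjusted p = 0.0106). Prkacb (ENSMUSG00000005034.15, chromosome 3, 146729574 to 146812990, minus strand) encodes the beta catalytic subunit, which is prominent in brain. Its values were 212, 248 and 294 CPM under DMSO and 191, 251 and 276 CPM under forskolin. Here the groups overlapped widely, with library 4 lowest and library 3 highest (log2 fold change -0.07, 95% interval -0.52 to 0.38, edgeR adjusted p = 0.845). Leaving out library 6 gave -0.20 with an edgeR adjusted p of 0.405. The longest transcripts of these genes share no identical stretch beyond 34 bases.

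The type I regulatory subunits included Prkar1a, the most abundant transcript per kilobase of the longest transcript, and Prkar1b, with the most negative fold change in the edgeR fit of all 6 libraries. Pkig was more negative than Prkar1b without library 2, 3, 4 or 5, and Pkib, Prkar1a and Pkig were with the GC trend removed. Prkar1a (ENSMUSG00000020612.16, chromosome 11, 109649405 to 109669656, plus strand) encodes the widely expressed type I alpha subunit. It had 454, 506 and 524 CPM in libraries 1, 2 and 3, and 362, 386 and 515 CPM in libraries 4, 5 and 6. As with Prkaca, libraries 4 and 5 were the lowest and library 6 fell among the DMSO values (log2 fold change -0.23, 95% interval -0.64 to 0.18, edgeR adjusted p = 0.446). Without library 6 the log2 fold change was -0.42 (-0.67 to -0.17, edgeR adjusted p = 0.0253). Prkar1b (ENSMUSG00000025855.13, chromosome 5, 139017306 to 139150001, minus strand) encodes the type I beta subunit, found mainly in nervous tissue. Its counts were 286, 376 and 356 CPM with DMSO and 175, 184 and 317 CPM with forskolin. Libraries 4 and 5 held clearly less than any DMSO library, while library 6 exceeded library 1. The log2 fold change was -0.59 (95% interval -1.20 to 0.02, edgeR adjusted p = 0.235) and -0.94 without library 6 (-1.27 to -0.60, edgeR adjusted p = 0.00574). The summed neuron markers given above were likewise lowest in libraries 4 and 5. Without library 6 edgeR called 8 of the 14 lower and 0 higher, beside 17.1% and 16.5% of all genes. Not every marker followed the sum: in libraries 4 and 5 Prox1 had 60.6 and 103 CPM against 41 to 61.5 CPM with DMSO. Nefl had 190 and 227 CPM against 174 to 222 CPM. Prox1 and Nefl were chosen after their values were seen. The part of neuron content in the lower Prkaca, Prkar1a and Prkar1b was not tested, and in bulk RNA fewer neurons and less of a transcript per neuron cannot be told apart.

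**Figure D2:**
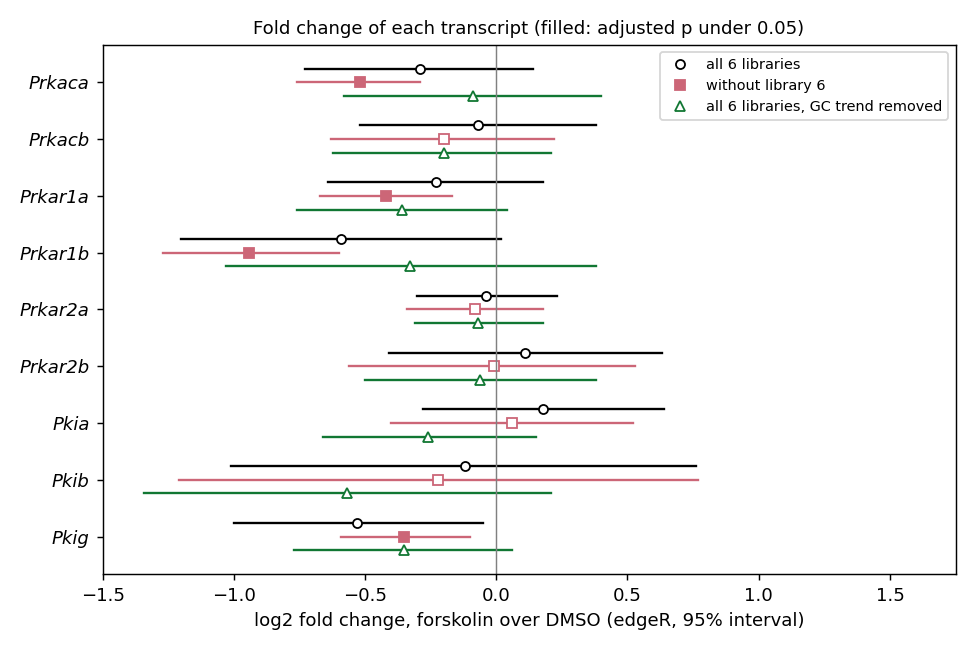
Log2 fold change of forskolin over DMSO for each transcript, with edgeR 95% intervals, from all 6 libraries (black circles), without library 6 (red squares) and from all 6 libraries with each library's trend on GC content removed (green triangles). Filled symbols have an adjusted p-value under 0.05, which only Prkaca, Prkar1a, Prkar1b and Pkig reach, and only without library 6.

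The upstream sequences of the genes that were low together in libraries 4 and 5 are shown with those of Prkacb for the cAMP response element, the site that CREB and related factors bind. The element was searched as TGACGTCA, which reads the same on both strands, and as its core TGACG or, on the other strand, CGTCA; a whole element contains the core on each strand, overlapping. RefSeq (GRCm38.p6) gave 24 start sites for 8 of the 9 genes, and the 250 bases before each were searched. A whole element stood before 1 of them, a start of Prkar1a, 49 bases upstream, and a core before 7 of 24; over all 32851 RefSeq windows the shares were 1.55% and 17.8%. Of these 7 windows 3 belong to Prkar1a, and 2 of those overlap and hold the same core. A further 1 belongs to Pkig, which was low in all forskolin libraries, and is not shown. The stretches shown were chosen because they hold a core: none was found before the other starts of Prkaca (2 starts in all), Prkacb (3) and Prkar1b (5). Capitals mark the elements and cores, and annotated exon bases are left out. They are Prkar1a at chr11:109650699-109650920 (plus strand), Prkar1b at chr5:139150002-139150222 (minus strand), Prkaca at chr8:83972728-83972977 (plus strand) and Prkacb at chr3:146812991-146813196 (minus strand).
Prkar1a: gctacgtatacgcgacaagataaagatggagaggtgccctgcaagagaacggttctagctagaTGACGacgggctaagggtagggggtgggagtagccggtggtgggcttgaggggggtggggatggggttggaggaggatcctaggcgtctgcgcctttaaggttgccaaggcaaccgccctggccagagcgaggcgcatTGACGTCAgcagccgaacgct
Prkar1b: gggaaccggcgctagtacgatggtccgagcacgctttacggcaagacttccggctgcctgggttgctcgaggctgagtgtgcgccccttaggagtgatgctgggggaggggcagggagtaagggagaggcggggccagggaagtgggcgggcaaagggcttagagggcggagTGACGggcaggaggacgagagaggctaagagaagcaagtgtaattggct
Prkaca: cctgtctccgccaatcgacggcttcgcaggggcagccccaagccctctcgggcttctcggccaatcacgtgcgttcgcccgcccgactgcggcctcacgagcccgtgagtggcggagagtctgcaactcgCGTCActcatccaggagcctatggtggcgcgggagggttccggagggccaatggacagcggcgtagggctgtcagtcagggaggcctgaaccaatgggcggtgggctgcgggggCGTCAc
Prkacb: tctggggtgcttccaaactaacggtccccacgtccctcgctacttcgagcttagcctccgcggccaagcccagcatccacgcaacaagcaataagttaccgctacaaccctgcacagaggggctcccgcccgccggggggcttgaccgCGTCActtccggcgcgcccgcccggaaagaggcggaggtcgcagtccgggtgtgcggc
The Prkar1a stretch holds the whole element and a separate core, Prkar1b has 1 core, Prkaca has 2 and Prkacb has 1. The counts are per gene, so that they do not show which start site was in use.

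The type II regulatory subunits, which anchoring proteins tether to synapses and dendrites, had overlapping groups and no call with or without library 6. Prkar2a (ENSMUSG00000032601.13, chromosome 9, 108689314 to 108750436, plus strand), the type II alpha subunit, had 74.3, 78.7 and 89.4 CPM with DMSO and 74.8, 79.7 and 81.8 CPM with forskolin. All 3 forskolin values lay within the DMSO range. Its log2 fold change of -0.04 had the narrowest interval of the 9 genes, -0.30 to 0.23 (edgeR adjusted p = 0.866), and without library 6 it was -0.08 (adjusted p = 0.582). Prkar2b (ENSMUSG00000002997.15, chromosome 12, 31958476 to 32061296, minus strand), the type II beta subunit and the form best known from brain and fat, had 29.1, 36.5 and 49.9 CPM with DMSO and 35.0, 42.3 and 47.7 CPM with forskolin. DMSO libraries 1 and 3 spanned the whole forskolin range, so that the spread within a group exceeded the difference between groups (log2 fold change 0.11, 95% interval -0.41 to 0.63, edgeR adjusted p = 0.783). The direction was not stable, since without library 6 the value was -0.01 (adjusted p = 0.969).

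The inhibitor peptides included the one transcript whose groups did not overlap, Pkig. The fitted values of the others, not called with all 6 libraries, were 0.18 for Pkia and -0.12 for Pkib, and with the GC trend removed those of all 3 were below zero. Pkig (ENSMUSG00000035268.14, chromosome 2, 163658386 to 163726158, plus strand), the gamma inhibitor, had 41.1, 37.8 and 36.3 CPM under DMSO and fewer, 31.7, 29.2 and 19.0 CPM, under forskolin. Every forskolin library lay below every DMSO library, and library 6 was here the lowest of all, unlike for Prkaca, Prkar1a and Prkar1b. Among all tested genes 26.5% had groups that do not overlap, 16.2% with forskolin lower. The log2 fold change of -0.53 (95% interval -1 to -0.05) had an unadjusted edgeR p of 0.0338 and an adjusted one of 0.193. Without library 6 it was smaller, -0.35 (-0.59 to -0.10), and passed at an edgeR adjusted p of 0.0418. An antisense gene, Gm16316, overlaps Pkig but held at most 16 counts in any library.

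Pkia (ENSMUSG00000027499.12, chromosome 3, 7366669 to 7445366, plus strand) encodes the alpha inhibitor, the main form in brain. It had 104, 117 and 162 CPM with DMSO and 127, 143 and 165 CPM with forskolin, so that only library 6 exceeded DMSO library 3. The log2 fold change was 0.18 (95% interval -0.28 to 0.64, edgeR adjusted p = 0.599), and 0.06 without library 6 (edgeR adjusted p = 0.817). Pkib (ENSMUSG00000019876.15, chromosome 10, 57631981 to 57741112, plus strand), the beta inhibitor, was scarce, with 94, 139 and 200 counts in libraries 1, 2 and 3 and 112, 178 and 149 counts in libraries 4, 5 and 6. At 94 counts the counting error alone is 10.3% of the value, against 0.732 to 0.872% for Prkar1a in libraries 3 and 5. The groups of Pkib overlapped (log2 fold change -0.12, 95% interval -1.01 to 0.76, edgeR adjusted p = 0.866). The value without library 6 was -0.22 (edgeR adjusted p = 0.695).

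The makeup of the kinase was then compared within each library, where scaling between libraries cancels but a trend on GC content that differs between libraries does not. The sum of the 4 regulatory transcripts over the sum of the 2 catalytic ones, in counts per kilobase, was 1.94, 2.03 and 2 under DMSO and 1.83, 1.68 and 1.87 under forskolin. All 3 forskolin ratios, that of library 6 included, were below all 3 DMSO ratios, with means of 1.80 ± 0.103 and 1.99 ± 0.0424 (SD, n = 3; exact two-sided permutation p = 0.1, the smallest that 3 against 3 can give, and 0.28 adjusted over 7 such measures). The ratio itself depends on the lengths used, with a DMSO mean of 7.69 on median transcript length, but the groups did not overlap under any of the 4 length settings. The separation also held with the GC trend removed, where the ratios were 1.99, 2.06 and 1.99 under DMSO and 1.81, 1.66 and 1.85 under forskolin (exact permutation p = 0.1, adjusted 0.7). Prkar1b, in a measure added after the data were seen, made up 45.6, 49.7 and 47.5% of the type I level with DMSO and 39.2, 38.8 and 45.1% with forskolin. These groups did not overlap either, although library 6 came within 1 percentage point of library 1 (exact permutation p = 0.1, adjusted 0.28). Without library 6 the difference in group means went from -0.193 to -0.233 for the ratio and from -6.61 to -8.64 percentage points for the Prkar1b share. Neither measure passed a threshold of 0.05. With the GC trend removed the Prkar1b share was 44.5 ± 2.8% under DMSO and 44.1 ± 5.1% under forskolin (SD, n = 3; exact permutation p = 0.9), and the groups overlapped.

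The other measures of makeup overlapped between the groups. Type I subunits were 90.7 ± 0.95% of the regulatory level with DMSO and 87.7 ± 1.82% with forskolin (SD, n = 3; exact permutation p = 0.2). Prkaca was 61.4 ± 3.51% of the catalytic level with DMSO and 57.4 ± 3.54% with forskolin (exact permutation p = 0.3). Its DMSO mean was 48.6% on coding length and 45.5% with no length scaling. Inhibitor over catalytic transcripts came to 0.333 ± 0.0344 and 0.396 ± 0.0551 (exact permutation p = 0.2). Libraries 4 and 5 were above every DMSO library and library 6, at 0.335, was not. This ratio rests on the length used, with DMSO means of 1.81 on coding length and 1.41 on median transcript length. The group differences were then 0.336 and 0.324. Pkia was 70.4 ± 5.44% of the inhibitor level with DMSO and 79.4 ± 5.58% with forskolin (exact permutation p = 0.2), and Prkar2b 40.7 ± 4.27% and 43.6 ± 2.71% of the type II level (exact permutation p = 0.4). On median transcript length the DMSO mean of the Prkar2b share was 11.6%. Single libraries moved the differences between groups: that of Prkar2b went from 2.85 to 0.764 percentage points without library 1, that of Prkaca from -4.02 to -2.01 without library 5, and that of inhibitor over catalytic transcripts from 0.0624 to 0.0392 without library 4. With the GC trend removed the difference turned for the Prkaca share (1.47 percentage points) and for inhibitor over catalytic transcripts (-0.0317), and shrank to 0.865 percentage points for the Pkia share and 0.212 for the Prkar2b share. Without library 6 the differences were -4.09 percentage points for the type I share, -5.35 for the Prkaca share, 5.94 for the Pkia share (9.07 with it) and 1.56 for the Prkar2b share, and 0.0928 for inhibitor over catalytic transcripts.

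**Figure D3:**
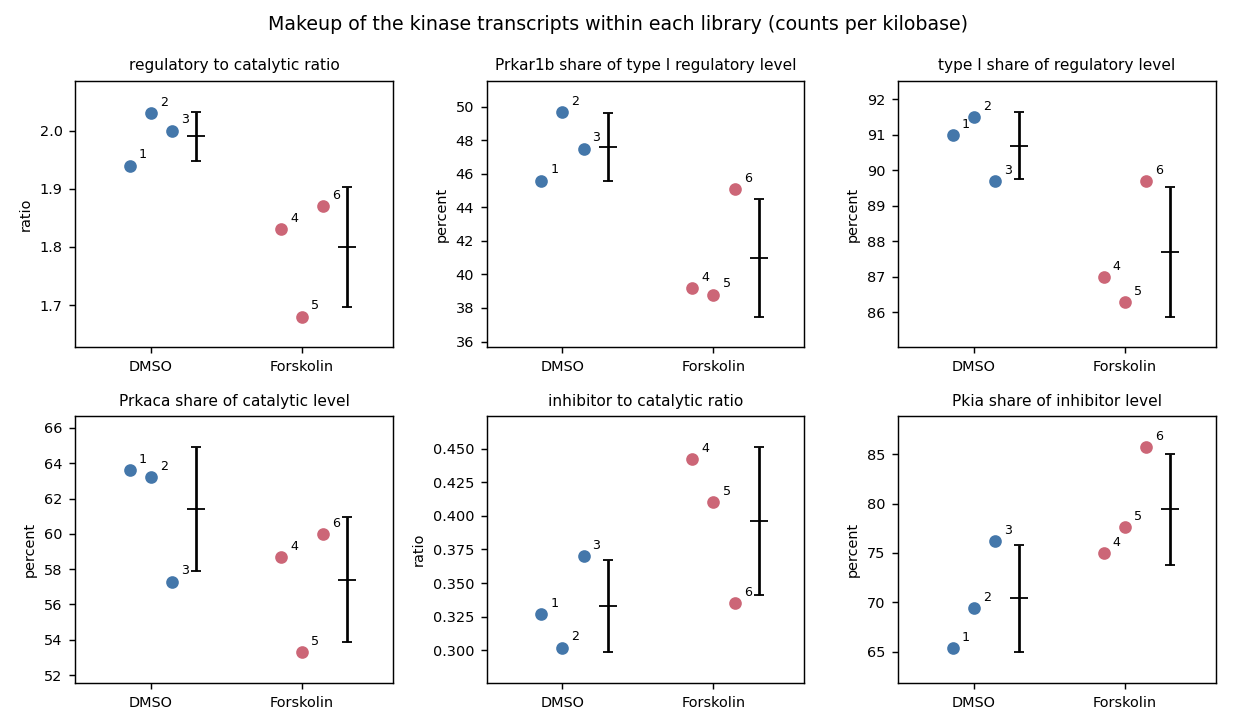
Makeup of the kinase transcripts within each library, from counts per kilobase of the longest transcript, as ratios or percentages on axes that do not start at 0. Points are libraries, numbered 1 to 6, and bars are the group mean with SD (n = 3); the regulatory to catalytic ratio is 1.94 to 2.03 with DMSO and 1.68 to 1.87 with forskolin, without overlap.

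Fold changes of the 9 genes followed their GC content, as they did over all genes. GC content of the longest transcript ran from 39.1% for Pkia to 55.9% for Prkar1b, and across the 9 genes the Pearson correlation with the log2 fold change was -0.83 (Spearman -0.82), beside a Spearman correlation of -0.52 over 15769 tested genes. These genes share the same 6 libraries and are not independent. Each of the 9 lay below the median of the tested genes within 1 percentage point of its own GC content. Prkar1b was -0.59 where such genes had a median of -0.23, Prkaca was -0.29 against -0.18, Prkar1a was -0.23 against 0.12, and Pkia was 0.18 against 0.43. With each library's GC trend removed, 9 of 9 fitted log2 fold changes were below zero, beside 49.1% of all tested genes, and 0 of 9 and 0% of all genes were called by edgeR (1949 of all genes and 0 of the 9 had an unadjusted p under 0.05). Prkar1b (-0.33), Prkaca (-0.09) and Pkig (-0.35) were then nearer zero, whereas Pkib (-0.57), Prkar1a (-0.36), Prkacb (-0.20) and Prkar2a (-0.07) were farther below it. Pkia turned to -0.26 (edgeR adjusted p = 0.519) and Prkar2b to -0.06. When library 6 was left out and the GC trend removed, Prkaca (-0.35), Prkar1a (-0.54), Prkar1b (-0.74) and Pkia (-0.48) were lower and Pkig (-0.19, edgeR adjusted p = 0.126) did not pass, in a fit that called 32% of genes.

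**Figure D4:**
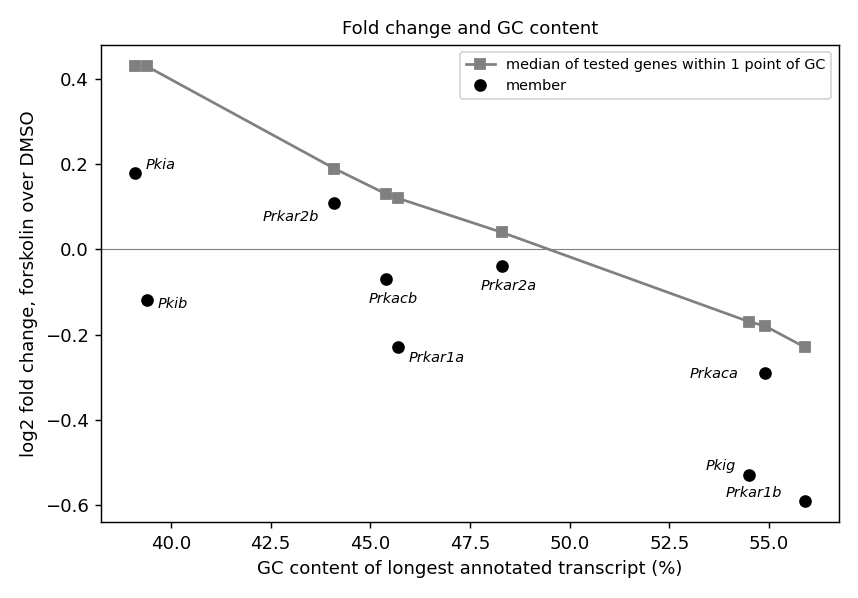
Log2 fold change of forskolin over DMSO (all 6 libraries) against the GC content of the longest annotated transcript, for the 9 genes (black circles) and for the median of the tested genes within 1 percentage point of each (grey squares). All 9 circles lie below the grey line.

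The genes most alike in pattern were those with the highest Pearson correlation of log2 CPM over the 6 libraries, among tested genes of mean CPM at least 5. They were taken for the 3 members with the smallest p-values. For Prkar1b they were Cadm3 (0.999), Ufsp1 (0.998) and Faim2 (0.998), and for Prkaca they were Cnnm1 (0.998), Mrps35 (0.998) and Arf3 (0.997). Pkig was most like Gm26917 (0.999), Map7d1 (0.998) and Hist1h4c (0.998); Hist1h4c has close copies among the histone H4 genes, which makes its counts uncertain. With only 6 libraries such values are common: within the same CPM limit 716 genes exceeded 0.95 with Prkar1b, 739 with Prkaca and 288 with Pkig. Among the members, Prkaca, Prkar1a and Prkar1b correlated at 0.97 to 0.98 with each other, and Prkar2b and Pkia at 0.97. Pkig correlated at -0.02 with Prkaca and at -0.69 with Pkia.

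The proteins that place the kinase in the cell had no call in edgeR with all 6 libraries, while DESeq2 called 1, Cbfa2t3, lower (adjusted p = 0.0293), beside 10.9% of all genes. Library quality weights gave 7 calls, beside 41.9% of all genes. Of 30 A-kinase anchoring proteins 27 were tested, and edgeR called 0 of them, with 4 under 0.05 before adjustment, where 22.3% of all genes were, and a median log2 fold change of 0.05. The smallest p-values were those of Cbfa2t3, with 3.18 CPM under DMSO and 1.68 CPM under forskolin (log2 fold change -0.92, edgeR adjusted p = 0.127), and Wasf1, a regulator of actin assembly, with 63.9 and 42.0 CPM (-0.61, edgeR adjusted p = 0.170). Without library 6, 2 of the 27 were higher and 5 lower, Cbfa2t3 (-1.04) and Wasf1 (-0.90) among the latter, beside 16.5% of all genes higher and 17.1% lower. Akap5, which holds the kinase at the postsynaptic membrane, was at 33.0 and 30.6 CPM (edgeR adjusted p = 0.825), and Map2, which binds type II subunits in dendrites and is also one of the neuron markers, at 1060 and 1100 CPM (edgeR adjusted p = 0.910). Leaving out library 6 took the log2 fold change of Akap5 from -0.11 to -0.34 (edgeR adjusted p = 0.302) and that of Map2 from 0.05 to -0.09 (0.764). Both were chosen after their values were seen. Akap4 and Akap13 are listed at 0 in every library; how transcripts were summed to genes is not given in the sources used here, and its part in these zeros was not tested.

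Upstream of the kinase, 28 of 30 genes that make or break down cAMP were tested, with 0 higher, 1 lower and a median log2 fold change of -0.11 in edgeR, beside 0.172% of all genes higher and 1.34% lower. Before adjustment 8 of the 28 were under 0.05, beside 22.3% of all genes, and DESeq2 called 3 higher and 2 lower, beside 4.89% and 5.98% of all genes. The called gene was Gnas, which encodes the stimulatory G protein alpha subunit that activates adenylyl cyclase; its mean was 26.3 CPM under DMSO and 9.59 CPM under forskolin (log2 fold change -1.46, edgeR adjusted p = 0.0276). Leaving out library 6 gave -1.62 (adjusted p = 0.00286). Removal of the GC trend gave -1.09 and ended the call (adjusted p = 0.191). The locus carries overlapping and antisense transcripts, and how its reads were assigned is not given in the sources used here, so its count is uncertain. Of 15 tested among 16 other cAMP effectors and modulators of the kinase, 0 were higher and 1 was lower in edgeR, with a median of -0.18, beside the same 0.172% and 1.34% of all genes; before adjustment 2 were under 0.05. The gene called lower was Hcn2, a channel subunit that binds cAMP directly, with 65.5 CPM under DMSO and 34.9 CPM under forskolin (log2 fold change -0.91, edgeR adjusted p = 0.0458). Its call did not hold once the trend on GC content was taken out (0.03, adjusted p = 0.963), and passed when library 6 was left out as well (-0.38, adjusted p = 0.0348). Without library 6, 3 of the cAMP metabolism genes were higher and 11 lower, and of 16 effectors then tested 0 were higher and 6 lower, again beside 16.5% of all genes higher and 17.1% lower. Rapgef3 and Rapgef4, the exchange factors that cAMP activates apart from the kinase, had log2 fold changes of 0.00 and -0.11 with all 6 libraries (edgeR adjusted p = 0.998 and 0.856); they too were chosen after their values were seen. Without library 6 these were 0.18 and -0.52 (edgeR adjusted p = 0.179 and 0.0889).

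The response checks were higher in each forskolin library than in any DMSO library, library 6 included. The difference for Fos was 2.46 on the log2 scale (edgeR adjusted p = 0.0375). Its call was lost with the GC trend removed (2.56, adjusted p = 0.161) and without any one of libraries 1 to 5 (2.29 to 2.81, adjusted p = 0.130 to 0.299). Nr4a1, another early CREB target, was at 2.20 (adjusted p = 0.0652, not past the threshold), with 37.6, 19.3 and 16.6 CPM under DMSO and 137, 138 and 61.6 CPM under forskolin. Crem, which encodes a cAMP-induced repressor of the same targets, had 7.03, 7.12 and 7.46 CPM and then 12.2, 12.3 and 10.1 CPM (log2 fold change 0.68, edgeR adjusted p = 0.0934). Without library 6 all 3 passed edgeR's test, Fos at 2.70 (adjusted p = 0.00309), Nr4a1 at 2.47 (0.00478) and Crem at 0.75 (0.00952). DESeq2 and library quality weights called Nr4a1 and Crem with all 6 libraries, and edgeR called Nr4a1 with no low-count filter (2.19, adjusted p = 0.0368). The authors' deposited table gave log2 fold changes of 2.44 for Fos and 2.12 for Nr4a1, and did not list Crem. In library 6 Fos, Nr4a1 and Crem lay above every DMSO library, while Prkaca, Prkar1a and Prkar1b in the same library lay within the DMSO range. Of the other members, Pkig (19.0 CPM in library 6) lay below every DMSO library and Pkia (165 CPM) above every one.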

How the data were processed

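RNA was measured in 3 DMSO and 3 forskolin libraries, grouped by their titles. The authors deposited estimated counts, whole numbers per gene symbol with 1 column per library; Salmon, DESeq and the build GRCm38 are named in the submitters' processing notes, while roles, annotation and strand setting are not given in the sources used here. The authors' deposited table of 132 genes holds 3 kinds of value, named in its header: the mean signal (normalised counts), the log2 fold change and the adjusted p-value. It was used to look up the members, the pathway list genes and the response checks, and to read its smallest log2 fold change. It held 0 of the members and 0 of the pathway list genes. Gene models came from GENCODE M21 (GRCm38), matched by symbol for 96.7% of rows, and promoter sequences from RefSeq (GRCm38.p6). Software was edgeR 4.0.16, DESeq2 1.42.0 and limma 3.58.1 under R 4.3.3. Genes were kept with filterByExpr (minimum count 10, minimum total 15), scaled with TMM factors, and tested by edgeR's quasi-likelihood functions (glmQLFit, then glmQLFTest). The Benjamini-Hochberg adjustment covered every tested gene, and calls were made at 0.05. The code was tested on simulated data. The 95% intervals use the log2 fold change divided by the root of the F statistic as the standard error. Makeup measures used an exact two-sided permutation test over 20 regroupings. The GC trend of each library was removed by loess (span 0.3) as offsets. Total counts ran from 28342764 to 47548379; counting errors are Poisson and cover counting only. The members and lists were chosen with earlier results of these data known. Named besides the members were Fos, Nr4a1 and Crem, and the called genes of each pathway list or else the 2 with the smallest p-values. So were the 3 genes of mean CPM at least 5 most correlated with each of 3 members. Akap5, Map2, Rapgef3, Rapgef4, Akap4, Akap13, Aqp4, Glul, Prox1 and Nefl are named outside this rule, after their values were seen. Of the 7 makeup measures, 3 (the Prkar1b, Prkar2b and Pkia shares) the GC correction of all 7, and the combination of GC correction with leaving out library 6 were added after the data were seen. Alternatives were DESeq2, limma-voom with and without library quality weights, RLE factors, library size alone, other filters, GC correction and each library left out.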

Additional observations from a re-analysis of the deposited data

How the results depend on the processing

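No paired analysis was possible because the replicate numbers run from 1 to 6 over both groups and none is shared. Over all genes, 245 calls became 1765 with DESeq2 (794 higher and 971 lower), 6795 with library quality weights (3403 higher and 3392 lower), 137 with RLE factors and 0 with the GC trend removed, and ranged from 0 to 5698 with 1 library left out; 0 was the count without each of libraries 1 to 5, where 1945 to 3216 genes had an unadjusted p under 0.05. With the GC trend removed and library 6 left out there were 5429. Of the 9 members, 4 were called with quality weights, 0 to 4 with 1 library left out (4 only without library 6, and the same 4 genes as with the weights), and 4 with the GC trend removed and library 6 left out, 3 of them shared with the fit without library 6; each of these was lower. The other alternatives called 0. Anchoring proteins gave 1 call with DESeq2 (0 higher and 1 lower), 7 with quality weights (3 and 4), 0 to 7 with 1 library left out (2 and 5 without library 6) and 11 with the combined correction (4 and 7). The cAMP metabolism list gave 5 (3 higher and 2 lower), 15 (4 and 11), 0 to 14 (3 and 11 without library 6) and 14 (2 and 12) in the same order, and 0 with the GC trend removed. The effector list gave 2 (0 and 2), 6 (1 and 5), 0 to 6 (0 and 6 without library 6) and 11 (1 and 10), and 0 with RLE factors or with the GC trend removed. In these fits 27 anchoring proteins, 28 cAMP metabolism genes and 15 or 16 effectors were tested. The shares of all genes higher and lower were 4.89% and 5.98% with DESeq2, and 21% and 20.9% with quality weights. They were 16.5% and 17.1% without library 6, and 15.9% and 16.1% with the combined correction. Fos and Gnas were past the threshold with all 6 libraries and without library 6, and lost it without each of the other libraries and with the GC trend removed, while their fold changes stayed at 2.29 to 2.81 and at -1.53 to -1.09; with the GC trend removed and library 6 left out both passed (2.80 and -1.34).

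The direction reversed with the GC trend removed for Pkia (-0.26, and -0.48 with library 6 also left out), Prkar2b (-0.06 and -0.19) and Hcn2 (0.03, but -0.38 and called with library 6 also left out); Hcn2 also lost its call with RLE factors (edgeR adjusted p = 0.0617). With 1 library left out the log2 fold change ran from -0.20 to 0.07 for Prkacb, -0.08 to 0.03 for Prkar2a, -0.03 to 0.33 for Prkar2b and -0.32 to 0.15 for Pkib. Prkaca, Prkar1a, Prkar1b and Pkig kept their direction under every alternative run. The 7 makeup measures were run only under other lengths, with each library left out and with the GC trend removed, and kept their direction under the first 2 kinds. With the GC trend removed the Prkaca share (1.47 points) and the inhibitor to catalytic ratio (-0.0317) reversed. With library 6 also left out the inhibitor ratio (-0.0142) and the Pkia (-3.48) and Prkar2b (-1.35) shares did. Scaling by library size without TMM shifted the all-gene median (log2) from 0.02 to -0.09, and 7 of 9 members were then below zero as with TMM. The cause of these differences was not tested. Counting error of 7.07 to 10.3% limits Pkib.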
